A study of Nicotiana tabacum with 9 samples.

Results

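Of the 74044 genes in the count tables of tobacco (Nicotiana tabacum) pollen tubes, 28 were already expressed without heat and were at least 4-fold higher after heat stress (HS), while growth alone changed them little. They were chosen by their levels, which are counts per Mio counts (CPM) scaled by TMM, a method that corrects for differences in library composition. A gene was taken when its mean at RT 6 h was at least 5 CPM, when the log2 ratio of the HS mean to the RT 6 h mean was at least 2, and when the log2 ratio of the RT 6 h mean to the RT 3 h mean was below 0.8 in size. The heat shock protein genes HSP70-3 and HSP101 were set aside by name, but neither passed these limits, so that 0 members were removed in this way. Because the levels of the 9 libraries chose the members, their rise under HS and their small change in growth are described here and carry no test.

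RNA was sequenced from pollen tubes of the cultivar Samsun-NN, grown on cellophane over solid medium from pollen that was pooled over several plants. RT 3 h tubes were grown for 3 h at room temperature, RT 6 h tubes for 6 h at room temperature, and HS 3 + 3 h tubes for 3 h at room temperature and then for 3 h at 37°C, with 3 libraries in each group. All groups shared the cultivar, the medium and in vitro growth without a pistil. Whether the libraries of a group came from separate pollen pools was not given in the sources used here, so the spread between them may be technical.

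Plant cells answer heat with heat stress transcription factors, which switch on genes for chaperones that hold, refold or disaggregate damaged proteins. Pollen tubes grow fast by adding wall and membrane at the tip, and carry RNA that was stored in the grain along with RNA made during growth. RNA of the genes described here was thus present before the heat, and sequencing does not tell whether a higher level comes from synthesis or from slower decay.

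The libraries held between 14931693 counts, in HS replicate 1, and 26772286 counts, in RT 3 h replicate 2, and 5 CPM stood for between 67.5 and 147 counts. The pollen tube genes NTP302 and PPME1, a pectin methylesterase of the growing tube wall, lay between 19400 and 23200 CPM and between 10500 and 12600 CPM over the 9 libraries, while the leaf genes Lhcb4, Lhcb5, Lhcb6 and CAB21 of the light-harvesting complex had at most 6 counts in any library. These marker genes were picked after their values were seen. In such bulk samples, fewer cells of a type and less RNA per cell cannot be told apart. The libraries kept no strand, and how reads from near-identical gene copies were counted is not given in the sources used here, which matters in tobacco because its genome joins the genomes of a pair of parent species.

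Expression at 5 CPM or more at RT 6 h was reached by 8337 genes, and 37 of these were at least 4-fold higher under HS, whereas 13 were at least 4-fold lower. The growth limit left out 9 of the 37, and the 28 members were 0.336% of the 8337 genes. Over all expression levels, 595 of the 24013 genes that exceeded 0.5 CPM in 2 or more libraries were at least 4-fold higher, and 450 of them were under 1 CPM at RT 6 h and another 108 were between 1 and 5 CPM. Most genes with a rise of this size were thus under 1 CPM at RT 6 h. Genes under 0.5 CPM in the RT libraries entered only through the HS libraries and could only appear as raised. The split by level therefore follows in part from the filter, and nothing further is read from it.

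**Figure D1:**
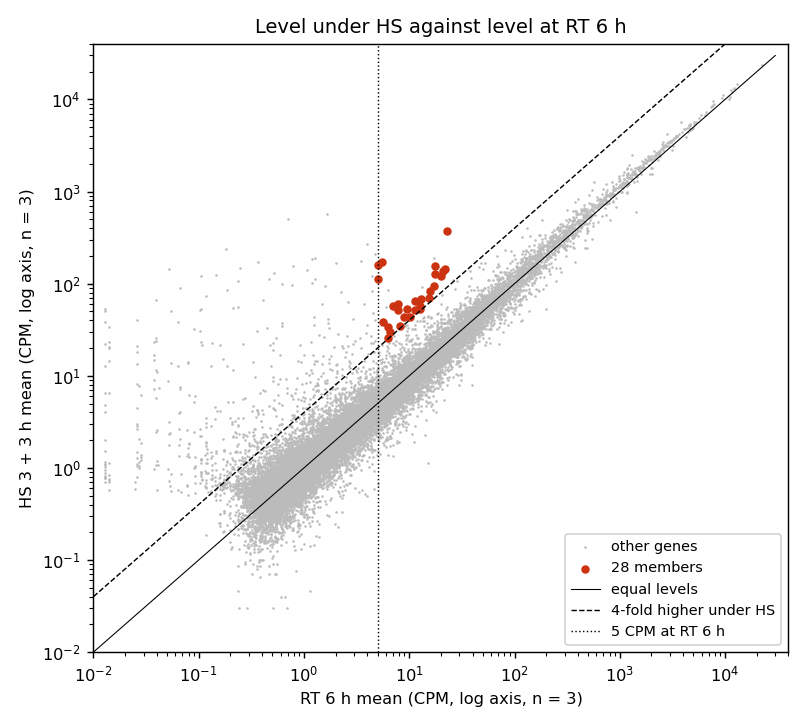
Mean CPM under HS against mean CPM at RT 6 h for each gene (log axes, n = 3 libraries per mean), with the 28 members in red. The solid line marks equal levels, the dashed line a 4-fold rise and the dotted line 5 CPM at RT 6 h, and genes at 0 CPM are not drawn. The members start between 5.02 and 22.6 CPM and end between 25.6 and 373 CPM.

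The members had between 5.02 and 22.6 CPM at RT 6 h, with a median of 10.8, and between 25.6 and 373 CPM under HS, with a median of 62.5. Their median rise was 5.61-fold, and it ranged from 4.10-fold to 31.5-fold. At least 16-fold was reached by 4 members, 8-fold to 16-fold by 2, and the other 22 stayed under 8-fold. Differential expression across all genes was called with edgeR's quasi-likelihood test at an absolute log2 fold change (log2FC) above 1 and a false discovery rate (FDR, Benjamini-Hochberg) of at most 0.005. All 28 members were called higher under HS than at RT 6 h, beside 6.24% of the 23053 genes tested and 2.12% of the 8337 genes at 5 CPM or more, and in all 28 each HS library lay above each RT 6 h library, beside 26.3% of the genes tested. Against RT 3 h, which shares the HS libraries, 28 were called higher as well, beside 7.36% of 23373 genes, and 28.7% of those genes had each HS library above each RT 3 h library. The rule used the contrast with RT 6 h, and its limits on heat and growth together also keep the ratio to RT 3 h above the limit for a call, so that all these counts describe the choice.

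Only 3 of the 28 members carry a name or a homolog in the sources used here, and the other 25 are given by their locus number, with no role. The study assigned Arabidopsis homologs to most of the genes it tested, so a missing name here does not mean that a gene is uncharacterised. The highest ratio was that of LOC107806338, a gene of 6 exon blocks on scaffold NW_015942527.1 of the TN90 genome build (4860 to 7946, minus strand). It had 5.6, 5.12 and 4.49 CPM in the 3 RT 3 h libraries, 4.43, 5.88 and 4.84 CPM in the RT 6 h libraries, and 159 CPM in each of the 3 HS libraries, with an SD of 0.298. The RT groups overlapped, and the HS mean was 31.5-fold above RT 6 h.

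Close to it was LOC107794811 (scaffold NW_015924494.1, 56910 to 59353, plus strand, 3 exon blocks), with 6.91, 4.2 and 4.49 CPM at RT 3 h, 6.60, 5.65 and 4.45 CPM at RT 6 h, and 164, 184 and 167 CPM under HS. That was 30.9-fold above RT 6 h and 33.0-fold above RT 3 h, and again the RT groups overlapped. LOC107788653 (scaffold NW_015916140.1, 57817 to 61826, plus strand, 3 exon blocks) had 10.2, 7.84 and 7.56 CPM at RT 3 h, 5.47, 5.42 and 4.18 CPM at RT 6 h, and 107, 120 and 113 CPM under HS. All of its RT 6 h libraries lay below its RT 3 h libraries, so the ratio was 22.5-fold against RT 6 h and 13.3-fold against RT 3 h. These 3 genes had the lowest RT 6 h means of the members and were the only members to pass 100 CPM from under 10 CPM at RT 6 h.

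LOC107803414 differed from them in that it started from the highest RT 6 h level of all members. It lies on scaffold NW_015937266.1 (176880 to 179698, minus strand) in 2 exon blocks, and had 37.3, 31.4 and 27.4 CPM at RT 3 h, 25.7, 21.6 and 20.6 CPM at RT 6 h, and 356, 388 and 375 CPM under HS. At 16.5-fold above RT 6 h, it had the highest HS level of the members, both in CPM and per exon length, where it reached 183 RPKM (TMM-scaled CPM per 1000 exon bases). By its gain of 350 CPM it stood apart, since the median gain of the members was 53.0 CPM.

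Next by ratio were LOC107829507 and LOC107774035, which fell between 8-fold and 16-fold. LOC107829507 (scaffold NW_015854093.1, 29280 to 35001, plus strand, 3 exon blocks) is listed as a pseudogene in the reference gene table. It was among the most even of the members, with 15.8, 17.5 and 16.4 CPM at RT 3 h, 16.7, 17.5 and 18 CPM at RT 6 h, and 156, 157 and 155 CPM under HS, 8.98-fold above RT 6 h. Another annotated gene, LOC107829503, lies on the same strand and shares 1182 exon bases with it, and has 0 counts in all libraries. How reads in this shared part were counted is not given, so these 0 counts do not show that the gene was silent. LOC107774035 (scaffold NW_015899042.1, 1072 to 4316, minus strand, 6 exon blocks) had 6.10, 6.11 and 5.59 CPM at RT 3 h, 6.43, 7.60 and 6.95 CPM at RT 6 h, and 60.6, 55.0 and 56.1 CPM under HS, which was 8.19-fold above RT 6 h. Its RT 6 h libraries all lay above its RT 3 h libraries.

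In the group under 8-fold, LOC107764955 (scaffold NW_015794481.1, 779 to 4699, plus strand, 3 exon blocks) had 11.7, 9.96 and 9.64 CPM at RT 3 h, 8.44, 7.60 and 7.38 CPM at RT 6 h, and 58.3, 61.3 and 60.1 CPM under HS, a ratio of 7.67 to RT 6 h. LOC107826146 (scaffold NW_015843003.1, 18074 to 19334, plus strand) lies in 1 exon block, and had 6.10, 6.48 and 5.81 CPM at RT 3 h, 5.18, 6.07 and 5.66 CPM at RT 6 h, and 37.9, 36.8 and 40.3 CPM under HS, a ratio of 6.80. For LOC107795480 (scaffold NW_015925345.1, 126894 to 133458, minus strand, 10 exon blocks), the libraries had 6.29, 6.41 and 6.17 CPM at RT 3 h, 7.14, 7.67 and 8.66 CPM at RT 6 h, and 55.9, 48.4 and 51.0 CPM under HS, a ratio of 6.61. The RT groups of LOC107826146 overlapped, those of LOC107764955 were lower at RT 6 h in each library, and those of LOC107795480 were higher.

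Levels at RT 6 h near 20 CPM were shared by LOC107768797, LOC107812124 and LOC107787794, which also ended close together under HS but had moved in different directions during growth. LOC107768797 (scaffold NW_015888818.1, 1219 to 4608, minus strand, 3 exon blocks) had 43.2, 34.0 and 32.1 CPM at RT 3 h, 24.1, 21.6 and 19.7 CPM at RT 6 h, and 143, 144 and 145 CPM under HS, so it was 6.60-fold above RT 6 h and 3.95-fold above RT 3 h. By contrast, LOC107812124 (scaffold NW_015953539.1, 1081 to 3291, minus strand, 5 exon blocks) had 12.7, 16.4 and 18.4 CPM at RT 3 h, 19.5, 21.4 and 22.4 CPM at RT 6 h, and 137, 135 and 141 CPM under HS, at ratios of 6.54 and 8.70. LOC107787794 (scaffold NW_015914951.1, 32086 to 35250, plus strand, 6 exon blocks) likewise had 10.5, 11.4 and 14.0 CPM at RT 3 h, 19.5, 20.4 and 19.7 CPM at RT 6 h, and 130, 118 and 118 CPM under HS, at ratios of 6.13 and 10.2. In each of the 3 genes the RT groups did not overlap.

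**Figure D2:**
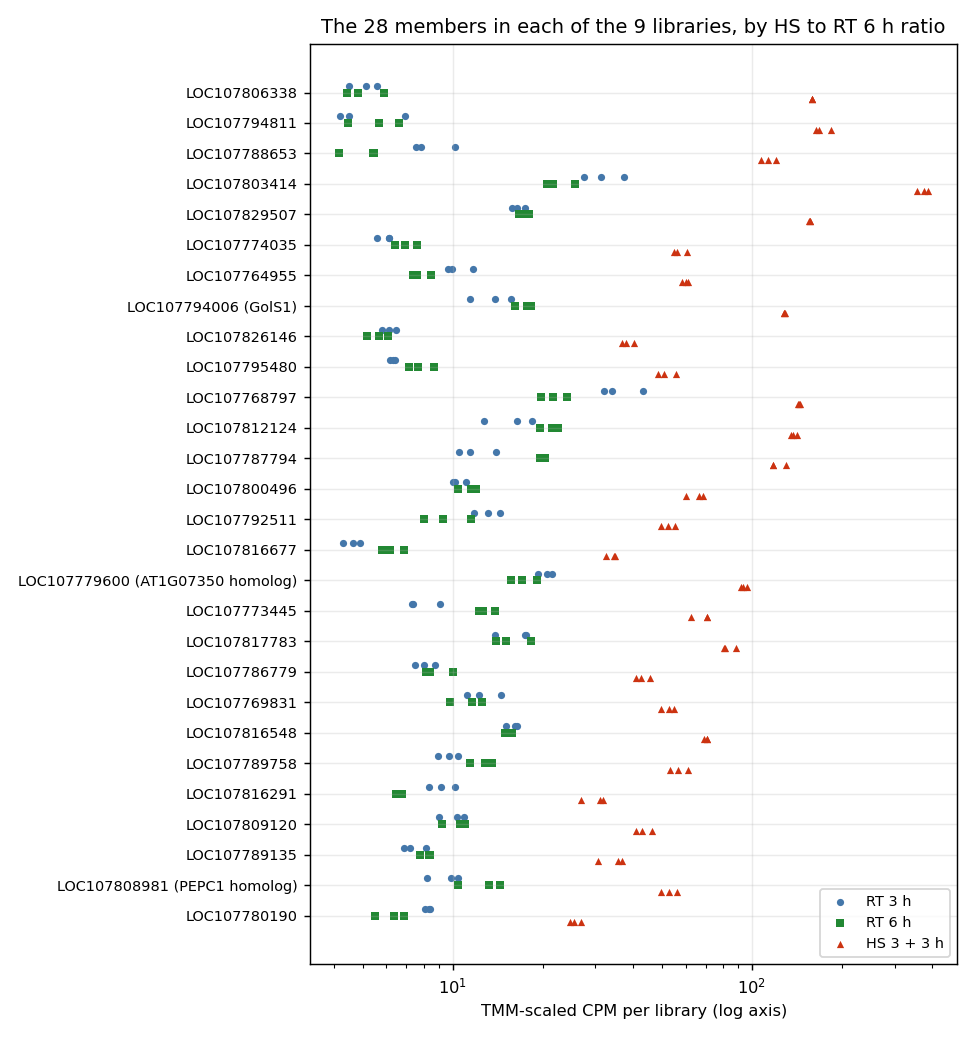
TMM-scaled CPM of the 28 members in each library (log axis), in rows ordered by the ratio of HS to RT 6 h, with circles for RT 3 h, squares for RT 6 h and triangles for HS (3 libraries each). All HS triangles lie to the right of the RT symbols of their row, from LOC107806338 with 159 CPM at the top to LOC107780190 with 25.6 CPM at the bottom.

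The lowest ratio was that of LOC107780190 (scaffold NW_015905921.1, 190648 to 203943, minus strand, 6 exon blocks), with 8.07, 8.42 and 8.36 CPM at RT 3 h, 5.51, 6.38 and 6.87 CPM at RT 6 h, and 26.9, 24.6 and 25.4 CPM under HS. It was 4.10-fold above RT 6 h and 3.09-fold above RT 3 h, the smallest of the members in both. The other members under 8-fold that are not described singly lay between 4.22-fold (LOC107789135) and 5.77-fold (LOC107800496) above RT 6 h.

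GolS1, LOC107794006 (scaffold NW_015923297.1, 6759 to 8852, minus strand, 4 exon blocks), has this name in the reference gene table, and it is read here as galactinol synthase. Galactinol synthase joins galactose to myo-inositol, the step that leads into the raffinose family of sugars, which plants make under several stresses. Its libraries had 11.4, 13.8 and 15.7 CPM at RT 3 h, 16.2, 18.3 and 17.7 CPM at RT 6 h, and 128, 128 and 129 CPM under HS. Under HS the spread was small, with an SD of 0.428 CPM around the mean of 128 CPM, and all RT 6 h libraries lay above the RT 3 h libraries. GolS1 was thereby 7.37-fold above RT 6 h and 9.39-fold above RT 3 h. A second locus of this family name, GolS (LOC107821202), had no count at RT and at most 2 counts in an HS library, and was not tested.

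LOC107779600 (scaffold NW_015905335.1, 75806 to 79215, minus strand, 8 exon blocks) is a homolog of AT1G07350 of Arabidopsis, known there as SR45a, an RNA-binding protein that takes part in the splicing of pre-mRNA. The member had 21.5, 19.3 and 20.6 CPM at RT 3 h, 17, 15.7 and 19.1 CPM at RT 6 h, and 96.3, 91.9 and 93.6 CPM under HS, which was 5.43-fold above RT 6 h, with RT 3 h just above RT 6 h in all libraries. Another homolog of the same Arabidopsis gene, LOC107801083 (scaffold NW_015802544.1, 533 to 3898, minus strand, 8 exon blocks), is no member because its RT 6 h libraries had only 4.64, 3.78 and 5.00 CPM, after 5.52, 5.01 and 5.88 CPM at RT 3 h. It reached 83.5, 83.4 and 82.1 CPM under HS, so that it rose further than the member, by a log2FC of 4.21 (SE = 0.08, FDR = 6.17e-65 by edgeR). The ratio of the member to this homolog in a library was 3.75 ± 0.210 (SD, n = 3) at RT 3 h and 3.89 ± 0.249 at RT 6 h, but 1.13 ± 0.0265 under HS. Thus the copies were unequal without heat and nearly equal under it, and the ratios of HS and RT did not overlap. Their exon lengths were alike, at 1666 and 1660 bases.

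LOC107808981 (scaffold NW_015947239.1, 3869 to 5873, plus strand, 5 exon blocks) is a homolog of Arabidopsis PEPC1 (AT1G17710), a phosphatase that frees phosphate from phosphocholine and phosphoethanolamine, the head groups of membrane lipids. Its level was 10.4, 9.89 and 8.22 CPM at RT 3 h, 13.2, 10.4 and 14.4 CPM at RT 6 h, and 56.4, 52.8 and 49.8 CPM under HS, 4.17-fold above RT 6 h. With that it was among the members closest to the limit of the rule. A further homolog, LOC107770164 (also listed as psi14B), had 7.61, 6.14 and 6.21 CPM at RT 3 h, 5.26, 4.70 and 4.10 CPM at RT 6 h, and 24.5, 23.5 and 23.4 CPM under HS. It rose by a log2FC of 2.34 (SE = 0.09, FDR = 4.75e-39 by edgeR) and missed the rule by its RT 6 h mean of 4.68 CPM. The last homolog, LOC107817132, went from 3.81 ± 0.596 CPM (SD, n = 3) at RT 6 h to 10.8 ± 0.774 CPM under HS, a log2FC of 1.49 (SE = 0.11, FDR = 2.72e-20 by edgeR). The member was 3.44 ± 1.05 times as high as LOC107817132 at RT 6 h and 4.92 ± 0.200 times under HS. Its ratio to LOC107770164 was 1.44 ± 0.154 at RT 3 h, then 2.75 ± 0.684 at RT 6 h, and 2.23 ± 0.0890 in HS tubes, where RT 6 h and HS overlapped. The study had listed these PEPC1 homologs for their change under HS, and the homologs of both members were added after their values were seen, so that their calls are a description.

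**Figure D3:**
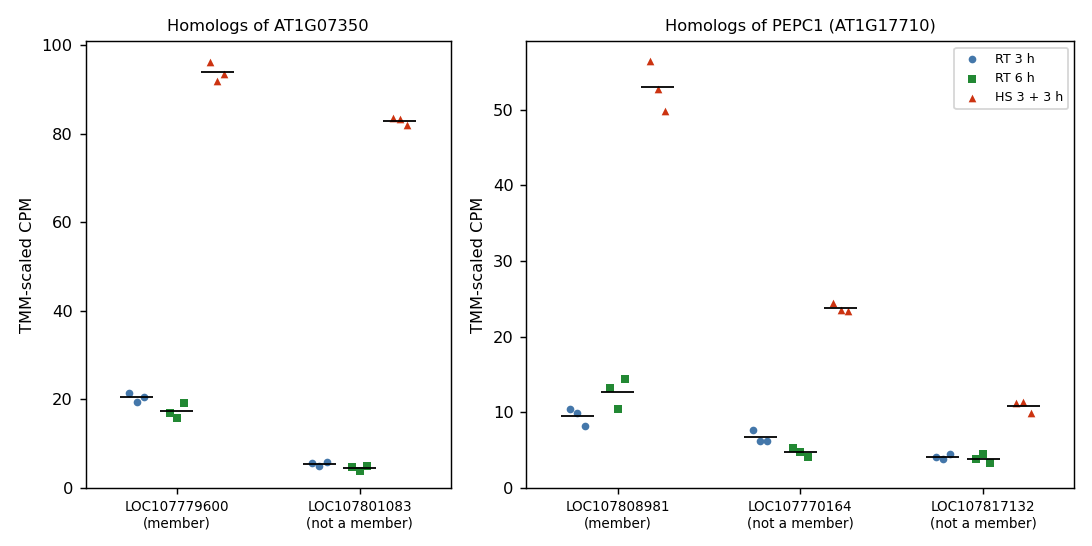
TMM-scaled CPM of 2 members and their homologs in each library, with a black bar at the mean of each group of 3. Both homologs of AT1G07350 end near each other under HS, at 93.9 and 83.0 CPM, from 17.3 and 4.47 CPM at RT 6 h, while the 3 homologs of PEPC1 keep their order, at 53.0, 23.8 and 10.8 CPM under HS.

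Growth without heat moved single members in either direction. From RT 3 h to RT 6 h, 15 members had a higher mean and 13 a lower mean, and the log2 ratios ran from -0.76 (LOC107788653) to 0.73 (LOC107787794) with a median of 0.05. In 8 members every RT 6 h library lay above every RT 3 h library, in 8 every one lay below, and in 12 the groups overlapped. These 16 genes without overlap were 57.1% of the members, beside 38.4% of the 23043 genes tested, and 0 members were called between the RT groups, beside 0.911% of genes called higher and 0.785% called lower. The rule set a limit on this contrast, and nothing is read from these shares.

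The level before the heat, at RT 3 h, was between 4.62 and 36.4 CPM with a median of 9.86. Measured from there, the median rise was 6.08-fold, from 3.09-fold to 33.0-fold, and 25 members reached a log2 ratio of 2 while 3 did not. Those 3 were LOC107768797 (log2 ratio 1.98), LOC107816291 (1.70) and LOC107780190 (1.63), whose RT 3 h levels were each above their RT 6 h levels. The opposite was seen in LOC107773445, which had 7.30, 7.37 and 9.06 CPM at RT 3 h, 12.2, 13.8 and 12.6 CPM at RT 6 h, and 70.9, 62.7 and 70.6 CPM under HS. Its ratio was 8.61 against RT 3 h and 5.30 against RT 6 h, without overlap between the RT groups.

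**Figure D4:**
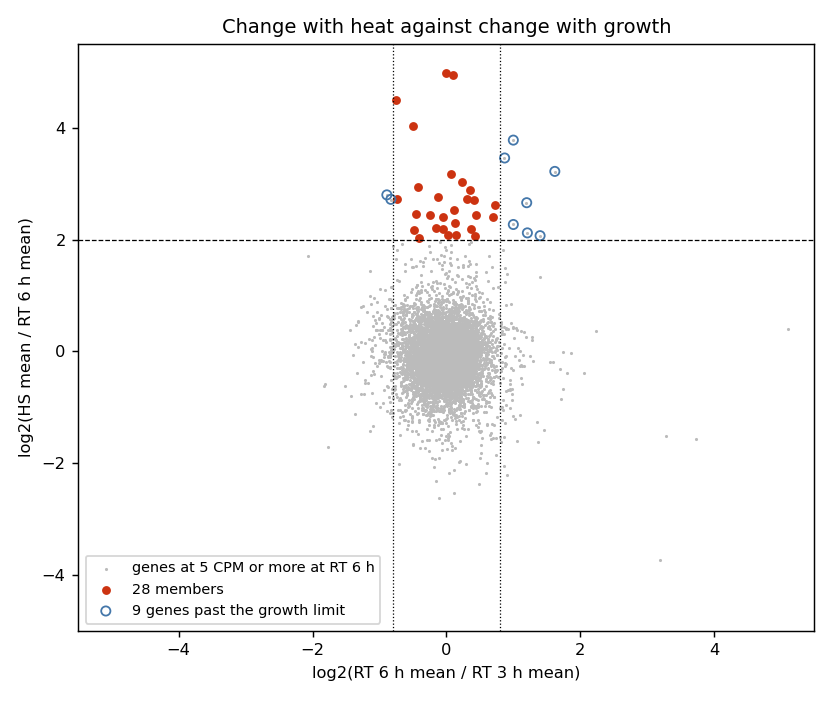
Log2 ratio of the HS mean to the RT 6 h mean against the log2 ratio of the RT 6 h mean to the RT 3 h mean, for genes at 5 CPM or more at RT 6 h (grey), the 28 members (red) and the 9 genes past the growth limit (blue rings). The dashed line is the heat limit of 2 and the dotted lines are the growth limits of 0.8 in size. The members spread from -0.76 to 0.73 along the growth axis.

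Summed over the 28 members, the level was 350, 332 and 331 CPM in the RT 3 h libraries, 332, 328 and 328 CPM in the RT 6 h libraries, and 2511, 2530 and 2516 CPM in the HS libraries. The sum hardly differed between the RT groups, at 338 ± 10.5 CPM (SD, n = 3) and 329 ± 2.66 CPM, and HS replicate 1, the shallowest library, lay with the other HS libraries. In raw counts, the members took between 0.0324% and 0.0395% of a library at RT and between 0.225% and 0.229% under HS. The 4 members with the largest ratios held 11.6% of the sum at RT 6 h and 32.4% under HS. They were picked by that ratio, so their share had to rise. The growth limit of the rule likewise bounds how far the sum could differ between the RT groups.

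By rank among the 24013 genes, the members stood between places 3198 and 8317 at RT 6 h and between 450 and 3011 under HS, where 7 were among the 1000 highest. At least 100 CPM under HS was reached by 9 members, 50 to 100 CPM by 12, and under 50 CPM by 7. Per exon length, their HS levels were between 9.73 RPKM (LOC107816291) and 183 RPKM (LOC107803414), and 5 members were above 100 RPKM. Besides LOC107803414, these were LOC107794811 (170 RPKM), LOC107787794 (111 RPKM), LOC107806338 (106 RPKM) and LOC107812124 (102 RPKM). No member was measured from few reads, since the lowest count in any library was 106.

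The annotation gave the members no common gene structure. They lie on 28 different scaffolds and have between 1 and 15 exon blocks, with a median of 5, the same median as the 23053 genes tested. Their median exon length was 1652 bases, beside 1715 bases for all genes tested, and 39.3% of the members had at most 3 exon blocks, beside 33.0% of all genes tested. The 558 genes that rose at least 4-fold from under 5 CPM at RT 6 h had a median of 3 exon blocks, and 55.7% of them had at most 3. A single exon block was found in 7.14% of the members and in 18.1% of those 558 genes. These shares were not tested. The reference gene table held 26 members, of which 24 are protein coding and 2, LOC107829507 and LOC107816291, pseudogenes, while LOC107817783 and LOC107773445 were not found. LOC107816291 and LOC107817783 have no coding sequence in the deposited annotation. Genes without coding sequence were 7.14% of the members, beside 11.3% of all genes tested. Of the members in the reference gene table, 7.69% were pseudogenes, beside 2.63% of the tested genes that it held. With 2 members in each case, nothing is read from these shares.

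LOC107817783 is unusual among the members in its length, with 8465 exon bases in 3 blocks and 8 annotated transcripts (scaffold NW_015817356.1, 45493 to 54752, minus strand). It had 13.8, 17.5 and 17.6 CPM at RT 3 h, 15.1, 13.9 and 18.3 CPM at RT 6 h, and 88.5, 80.8 and 81.2 CPM under HS. That is 5.29-fold above RT 6 h, while per exon length it was low, at 9.86 RPKM under HS.

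Genes next to a member were not used by the rule, though not all were independent of it. Within 10000 bases of their spans, 20 members had 26 neighbours, none of them a member, and 9 of these were tested between HS and RT 6 h. Of the 9, 2 were called higher, 1 was called lower, and 6 did not pass the limits, beside 6.24% of all genes called higher and 2.87% called lower. Of the 2 called higher, LOC107806340 was under 0.5 CPM at RT and passed the filter only through the HS libraries, so it could only be called higher. The other, LOC107816292, shares exon bases with its member. Nothing is thus read from the share called higher. The gene that was called lower was LOC107788654, which ends 450 bases from the end of LOC107788653 on the other strand. It had 5.6, 6.04 and 6.14 CPM at RT 3 h, 5.80, 5.84 and 5.85 CPM at RT 6 h, and 2.30, 2.05 and 1.5 CPM under HS, a log2FC of -1.61 (SE = 0.16, FDR = 1.90e-15 by edgeR), next to a member that was 22.5-fold higher.

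LOC107816292 overlaps the pseudogene LOC107816291 on the opposite strand, over 3386 bases of their spans and 319 exon bases. It rose from 9.22 ± 1.74 CPM (SD, n = 3) at RT 6 h to 27.6 ± 1.5 CPM under HS, a log2FC of 1.57 (SE = 0.08, FDR = 4.50e-30 by edgeR). The member itself had 9.15, 8.32 and 10.2 CPM at RT 3 h, 6.47, 6.64 and 6.75 CPM at RT 6 h, and 31.7, 26.9 and 31.1 CPM under HS. Because the libraries kept no strand, reads from the shared part of these genes cannot be told apart. The other neighbour that was called higher, LOC107806340, ends 181 bases from the end of LOC107806338 and had 54 counts over all libraries. It went from 0.0784 ± 0.0377 CPM at RT 6 h to 0.655 ± 0.256 CPM under HS, a log2FC of 3.04 (SE = 0.54, FDR = 1.68e-06 by edgeR), and fell under the filter on low counts without HS replicate 2 or without HS replicate 3, which left 1 neighbour called higher.

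Chaperone genes, the best known part of the heat response, contributed 0 of the 28 members by name. However, 25 members have no name or homolog here, so any chaperone genes among them could not be counted. The lists of chaperones and folding helpers matched 14 tested genes by the names in the reference gene table, and edgeR called 8 of them higher under HS than at RT 6 h and 0 lower (0 lower also at an unadjusted p under 0.05 and with DESeq2), with a median log2FC of 1.36 beside 0.01 for all genes tested. Among all genes tested, 6.24% were called higher and 2.87% lower. FKBP62 and Nthsp26a, both called higher, had only 0.186 and 0.0278 CPM at RT 6 h. They passed the filter on low counts only through the HS libraries, so they could only be called higher. The count of 8 and the median log2FC of 1.36 include them. With at least 10 counts in every library, 6 chaperone genes were called higher. Of the 14 genes, 6 belong to the BIP family, and the lists were chosen with earlier results of these data known. Nothing is thus read from the contrast with all genes. Most tobacco genes have no such name, so the counts from these lists cover few of the chaperone genes. The chaperone genes lay on either side of the members in level. HSP101 (LOC107799003), which pulls proteins out of aggregates, rose from 4.72 ± 0.301 to 211 ± 13.0 CPM (SD, n = 3; log2FC = 5.49, SE = 0.07, FDR = 7.20e-77 by edgeR). The J protein gene dnaJ (LOC107763704), a partner of HSP70, rose from 2.03 ± 0.371 to 168 ± 2.41 CPM (log2FC = 6.36), and FKBP62 (LOC107824095), a proline isomerase that works with HSP90, from 0.186 ± 0.0630 to 85.9 ± 2.67 CPM (log2FC = 8.82). These ended at HS levels in CPM that some members also reached, but started below the 5 CPM of the rule.

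The small heat shock protein gene Nthsp26a (LOC107764596) rose from 0.0278 ± 0.0482 to 6.17 ± 1.56 CPM, below the HS level of each member. On the other side were abundant genes with smaller ratios, namely NtHsp70 (LOC107795135), which rose from 49.7 ± 8.19 to 144 ± 11.9 CPM (log2FC = 1.54), and the luminal binding protein genes BIP1 (LOC107805460) and BIP2 (LOC107805427), chaperones of the endoplasmic reticulum, with log2FCs of 1.22 and 1.51. HSP70-3 (LOC107766295) was close to the members in level, with 13.3 ± 0.958 CPM in RT 6 h and 92.6 ± 6.34 CPM in HS tubes, but was lower at RT 6 h than at RT 3 h, with a log2 ratio of -0.89. BIP3, BIP4, BIP5, BIP8, Rar1 and GrpE1 did not pass both limits, with log2FCs between 0.42 and 1.00. The list of redox genes matched 12 genes by name, of which only 4 catalase and peroxidase genes were tested. Of these 4, 0 were called by edgeR or by DESeq2, with a median log2FC of -0.52, and 2 were lower at an unadjusted p under 0.05. Apart from cat3, they had between 0.653 and 1.73 CPM at RT 6 h. Since 6.24% of all genes tested were called higher, 0 of 4 cannot show whether redox genes respond to heat. The study names the response to reactive oxygen species among its strongly changed gene groups. None of the members was among the 709 lipid genes and 1319 transcriptional regulators that were matched here from the lists of the study. In these lists, edgeR called 20 lipid genes higher and 20 lower under HS than at RT 6 h, and 108 regulators higher and 38 lower. The members were only 0.336% of the genes at 5 CPM or more at RT 6 h, so nothing is read from their absence.

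The spread between replicates was larger for the members at RT than under HS. Their median coefficient of variation was 9.96% and 9.06% for the RT 3 h and RT 6 h libraries and 5.17% for the HS libraries, and counting error alone gives medians of 6.07%, 6.07% and 2.88% at these depths. For the other 8309 genes at 5 CPM or more at RT 6 h, the medians were 6.19%, 5.09% and 5.68%, where counting error alone gives 4.81%, 5.05% and 5.96%. The medians of the members were thus above counting error in each group, also under HS. Without HS replicate 1 the median of the members under HS was 2.84%. In single libraries, HS replicate 2 had the lowest HS value in 57.1% of the members and 32.3% of the other genes, and HS replicate 1 the highest in 46.4% and 34.0%, which was not tested.

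At the limits of the rule, the members just inside by RT 6 h level were LOC107788653 (5.02 CPM) and LOC107806338 (5.05 CPM), and just outside were HSP101 (4.72 CPM) and LOC107770164 (4.68 CPM). By the log2 ratio of HS to RT 6 h, LOC107780190 (2.03) and LOC107808981 (2.06) were just inside, and LOC107766620 (1.998) and LOC107764041 (1.97) just outside. By the log2 ratio of RT 6 h to RT 3 h, LOC107788653 (-0.76) and LOC107768797 (-0.74) were just inside, and LOC107830071 (-0.83) and LOC107769068 (0.87) just outside.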

How the data were processed

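Poly(A) RNA of 9 samples was sequenced from non-stranded libraries. The authors aligned the reads to TN90 with STAR 2.5.2a, counted them per gene with featureCounts 1.5.0-p1 and deposited whole-number counts per gene without normalization, with the TN90 annotation (demultiplexing was done with bcl2fastq 2.17.1.14). Groups were taken from the labels. No other per-sample columns were left out.

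CPM values and tests came from edgeR 4.0.16 (R 4.3.3) with TMM. The 6 libraries of a comparison were fitted together, over genes above 0.5 CPM in at least 2, with the quasi-likelihood test. On simulated counts with 200 changed genes, all were recovered in each comparison. The size of the changes and the calls of unchanged genes are not given here. Recovery near the limits of a call is thus not shown. DESeq2 1.42.0 was an alternative, as were other scalings, filters, samples and a replicate block. Summaries used pandas 2.3.3 under Python 3.11.15, and figures matplotlib 3.10.9. Replicates of a group differed by more than sampling noise (chi-square per degree of freedom from 1.68 to 6.06).

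The members and lists were chosen with earlier results of these data known. Libraries were printed singly for the 10 members of largest ratio, the 10 of highest HS mean, the 5 of highest RT 6 h mean, those at a limit and those with a known homolog. LOC107773445, LOC107816291 and LOC107817783, the neighbours and the homologs were added after their values were seen. Gene names came from a RefSeq table of another assembly (K326), used for names only, and homologs from the study. Homologs replaced the planned search for similar proteins.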

Additional observations from a re-analysis of the deposited data

How the results depend on the processing

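The rule gave 62 genes with an RT 6 h mean of at least 2 CPM in place of 5, 15 with at least 10 CPM, 73 with a log2 ratio of at least 1.5, and 14 with at least 2.5. It gave 23 genes without TMM, 22 of them members, 28 with size factors of DESeq2, the same genes, 26 with medians, and 36 without a growth limit, where HSP70-3 is then left out by name (an alternative added after seeing the data). With each library left out in turn it gave 24 to 31 genes, and 21 members were kept in all 9 cases. Under all alternatives of the fits, the 28 members kept their direction and their calls, with log2FCs from 1.87 to 5.09 against RT 6 h and from 1.33 to 5.29 against RT 3 h. The members were chosen by their ratios in these same libraries, so this too describes the choice and is no support for it.

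A minimum of 10 counts in every library left 819 of the 1438 genes called higher against RT 6 h and 1020 of the 1720 against RT 3 h, and 6 chaperone genes in place of 8 and 1 neighbour in place of 2 called higher, since fewer genes were tested. A test against a log2FC of 1 (glmTreat) left 694 genes higher against RT 6 h. With library sizes in place of TMM, all genes had a median log2FC of -0.15 against RT 6 h, with 1170 genes higher and 1070 lower (1438 and 661 with TMM), and -0.28 against RT 3 h, with 1161 higher and 2562 lower (1720 and 1150). LOC107789145, a neighbour, was called lower only without TMM (log2FC = -1.03), and BIP5 higher only without RT 6 h replicate 3 or HS replicate 1 (log2FC = 1.01). With single libraries left out, 1303 to 1400 genes were higher against RT 6 h, 1561 to 1696 against RT 3 h, 335 to 447 were called in growth, 8 to 9 chaperone genes and 1 to 2 neighbours were higher, and 3 homologs in each case.

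Replicate numbers gave little sign of pairing. Deviations of same-numbered libraries correlated between -0.03 and 0.15, and those of other pairs between -0.11 and 0.04. With 3 libraries in each group, these values cannot show how the samples were collected. With the replicate number as a block, 1419 genes were higher against RT 6 h and 1682 against RT 3 h, 416 were called in growth, and 8 chaperone genes, 3 homologs and 2 neighbours were higher, so no named call changed.

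The planned analyses of promoter motifs (with 3 or 2 units) and of similar proteins (at 80 or 90 percent identity) were not run, because no sequences were used here. Members near a limit are set by depth and spread, and names cover few genes.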

Other observations

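A further 9 genes passed the level and heat limits but had changed too much in growth, and 7 of them had risen from RT 3 h to RT 6 h. AOX2 (LOC107781761), an alternative oxidase that passes electrons from ubiquinol to oxygen in mitochondria, had 9.69, 10.5 and 9.64 CPM at RT 3 h, 24.1, 27.1 and 27.4 CPM at RT 6 h, and 110, 106 and 112 CPM under HS. LOC107769068 had 8.73, 9.62 and 9.93 CPM at RT 3 h, 17.5, 17.2 and 17 CPM at RT 6 h, and 188, 195 and 187 CPM under HS, the highest HS mean of these 9 genes. LOC107792730 had the largest growth change, from 1.96 ± 0.407 CPM (SD, n = 3) at RT 3 h to 6.00 ± 0.705 CPM at RT 6 h, and reached 55.8 ± 5.51 CPM under HS. In each of these 3 genes the groups did not overlap, and the levels were lowest at RT 3 h and highest under HS.

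LOC107795296 went from 3.15 ± 0.398 through 6.28 ± 0.317 to 86.4 ± 2.10 CPM, and LOC107774993 from 8.84 ± 0.617 through 20.3 ± 0.266 to 128 ± 3.63 CPM. LOC107810517 and LOC107779140 ended lower, at 46.6 ± 3.16 and 49.4 ± 3.88 CPM under HS, from 9.66 ± 0.0971 and 11.4 ± 0.434 CPM at RT 6 h. The genes that fell in growth were HSP70-3 (LOC107766295), from 24.7 ± 1.19 CPM at RT 3 h to 13.3 ± 0.958 CPM at RT 6 h, and LOC107830071, from 9.75 ± 0.853 to 5.5 ± 0.583 CPM, and they reached 92.6 ± 6.34 and 36.1 ± 1.65 CPM under HS. Their values chose these genes, so that no test is given.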
